A study of Homo sapiens with 1 sample.

Results

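Accessible chromatin was mapped at 8 genes of kidney cancer in the human renal carcinoma line 786-O, derived from clear cell disease (ccRCC) and here carrying an empty vector. The genes were VHL, ELOC, BAP1, SETD2, MTOR, TSC1, CDKN2A and CDKN2B, 8 of the 20033 protein-coding genes of the GENCODE annotation of hg38. A peak belonged to a gene when its summit, the highest point of the peak, lay in the gene record or within 50 kb of either end. By this rule 49 of the 88615 peaks on the 24 primary chromosomes were assigned. The assay was ATAC-seq, in which Tn5 transposase cuts open DNA. It was run on 1 library of empty-vector cells, the baseline of a study on DPF3a. The label gives an empty vector whereas the names of the peaks read as wild type. There was no replicate, so all values describe this library and no test between groups or p-value is given.

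These genes act in 4 connected systems. VHL is the substrate-recognition subunit of a ubiquitin ligase that marks hypoxia-inducible factors for degradation, and ELOC encodes elongin C, the adaptor that holds VHL in the ligase. BAP1 removes ubiquitin from histone H2A, and SETD2 places the trimethyl mark of H3K36 along transcribed genes. Like VHL, both lie on the short arm of chromosome 3, the arm most often lost in ccRCC. MTOR encodes the growth-controlling kinase of the mTOR complexes, and TSC1 encodes hamartin, part of the complex that restrains it. CDKN2A and CDKN2B lie side by side on 9p21. They encode the cyclin-dependent kinase inhibitors p16 and p15, and CDKN2A also encodes ARF, a stabiliser of p53, from a separate first exon. An open promoter does not show that a working protein is made, and 786-O is a line known to lack functional VHL.

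The genes fell into 3 kinds. VHL, BAP1, SETD2 and TSC1 had a promoter peak within the middle 50% of promoter folds (16.0 to 39.2), which at TSC1 held only for an internal start. MTOR and ELOC had stronger ones, and CDKN2A and CDKN2B had no peak at all, in the gene or within 50 kb. Thus 6 of 8 had a promoter peak, compared with 61.4% of all protein-coding genes. Promoters were taken as the 1 kb before and the 100 bp after each annotated start site (TSS) of a gene.

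Promoter sequences are given for SETD2 and MTOR, which had peaks at these bases, and for the 3 start sites of the CDKN2 genes, which had none, so that promoters with and without a peak can be compared. They come from RefSeq (GRCh38.p14), whose table held 6 promoters for 5 of the 8 genes, with a pair for CDKN2A. All are on the minus strand and are written 5′ to 3′, covering up to 200 bases before the start. Capitals mark the SP/KLF site GGGCGG and the CCAAT box on either strand.
SETD2, chr3:47164114-47164313: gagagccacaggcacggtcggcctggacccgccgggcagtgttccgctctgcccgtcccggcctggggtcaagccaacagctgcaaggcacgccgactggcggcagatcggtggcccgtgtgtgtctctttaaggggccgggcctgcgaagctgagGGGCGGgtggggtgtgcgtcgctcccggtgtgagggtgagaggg
MTOR, chr1:11262557-11262751: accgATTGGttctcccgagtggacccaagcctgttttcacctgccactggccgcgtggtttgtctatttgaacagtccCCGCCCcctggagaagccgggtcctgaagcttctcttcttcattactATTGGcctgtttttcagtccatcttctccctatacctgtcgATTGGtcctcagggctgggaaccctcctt
CDKN2A, ARF start, chr9:21995325-21995524: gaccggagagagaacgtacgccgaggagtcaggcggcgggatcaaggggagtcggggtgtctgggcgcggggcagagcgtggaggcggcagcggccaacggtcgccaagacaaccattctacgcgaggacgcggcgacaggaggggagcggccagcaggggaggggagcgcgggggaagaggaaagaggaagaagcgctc
CDKN2A, p16 start, chr9:21974867-21975057: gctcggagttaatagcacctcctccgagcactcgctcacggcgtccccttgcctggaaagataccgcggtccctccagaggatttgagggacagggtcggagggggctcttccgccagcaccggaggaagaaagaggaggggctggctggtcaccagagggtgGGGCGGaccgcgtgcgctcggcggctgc
CDKN2B, chr9:22009306-22009505: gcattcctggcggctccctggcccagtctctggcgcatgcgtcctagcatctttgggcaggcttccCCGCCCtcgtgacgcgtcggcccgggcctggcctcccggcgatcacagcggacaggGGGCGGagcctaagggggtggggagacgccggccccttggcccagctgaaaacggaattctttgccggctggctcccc

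Over the promoter of the canonical start alone, the GC content was 58.1% at CDKN2A and 46.8% at CDKN2B, against a median of 54.6% over protein-coding genes. Closer to the start the values were higher. Over 250 bases before to 50 after the start, the GC content was 69.0% at the p16 start, 67.3% at CDKN2B and 63.3% at the ARF start, against 70.3% at SETD2, 61.7% at TSC1 and 59.3% at MTOR. The number of CpG pairs was 26, 25 and 28 at the starts without a peak and 28, 25 and 16 at those with one, in the same order. A GGGCGG site was found at the p16 start, CDKN2B, SETD2, MTOR and TSC1 and not at the ARF start, and 45.0% of 35116 RefSeq promoters of this length contained it. The MTOR promoter also held CCAAT (34.6% of promoters). A hypoxia core, ACGTG or GCGTG, was found at the p16 start, the ARF start, SETD2 and MTOR (48.4%), and the TEAD site GGAATG at CDKN2B (14.0%). The TSC1 promoter held the ETS site CCGGAAG (10.3%) and the YY1 site AAGATGGCG (1.75%). These matches describe the letters only, and no binding was measured.

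VHL, on the plus strand of chromosome 3 (10141778 to 10153667), had 1 peak inside its record. It spanned 10141470 to 10142416 with a fold enrichment of 24.2 (95% counting interval, 17.9 to 32.1). The fold is the summit pileup, the depth of reads over the summit, relative to a background set for the whole genome, and here the pileup was 46. The summit lay in the coding part of exon 1, 133 bp past the canonical VHL start and 63 bp past another VHL start, so with the canonical start alone VHL would not count as having a promoter peak. Its fold was higher than 45.2% of promoter peaks of protein-coding genes, and higher than 13 of the 49 within 5 Mb, whose median was 32.5. In such comparisons each gene counts by its promoter peak of highest fold, and a shared peak counts for each of its genes. A peak-free stretch of 22.1 kb held the rest of the gene and ran 10.8 kb beyond its end. It reached the promoter peak of IRAK2, a kinase gene of innate immune signalling (fold 16.0). Stronger peaks stood further into IRAK2, at 10173316 to 10174463 (fold 52.6; 42.9 to 63.8) and 10191476 to 10193596 (fold 62.3; 51.8 to 74.5). The latter exceeded 98.2% of all peaks and was the strongest peak outside promoters in the VHL window. On the other side the promoter of BRK1 had a fold of 29.4.

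ELOC had the highest promoter fold of the 8 genes. The gene lies on chromosome 8, minus strand (73939169 to 73972307), and its promoter peak, at 73970893 to 73973089, was 2197 bp wide, wider than 98.0% of peaks. The fold was 144 (127 to 162) at a pileup of 278. It tied with 2 other peaks for rank 4 of 88615. The summit, at -145 bp from the canonical TSS (negative values are upstream), was shared with the promoter of TMEM70, a gene for assembly of mitochondrial ATP synthase that is transcribed away from ELOC, so the peak cannot be assigned to ELOC alone. Genes around ELOC also had high folds. Within 5 Mb, 23 other protein-coding genes had a promoter peak, among them TMEM70 with this same peak. Their median fold was 60.3, compared with 25.8 over all protein-coding genes, and the ELOC peak was 2.38 times this local median. Copy number around ELOC was not tested. Another 7 peaks lay in the window, among them 1 at another start of TMEM70 (fold 44.8) and 1 downstream of ELOC at 73934103 to 73935914 (fold 29.9; 22.8 to 38.6), the strongest outside promoters. The intronic peak of ELOC had a fold of 9.28.

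BAP1, on the minus strand of chromosome 3 (52401008 to 52410008), had no summit inside its record. Its promoter peak, at 52409834 to 52411097, had a fold of 24.2 (17.9 to 32.1). The summit lay at -657 bp from the BAP1 start and in the promoter of PHF7, a neighbour read in the opposite direction, so the peak cannot be assigned to BAP1 alone. The fold was higher than 55 of the 117 promoter peaks within 5 Mb (local median 24.7), which count this same peak for PHF7. All 7 peaks of the window were on the PHF7 side. The other 6 had folds from 5.15 to 14.4, and the strongest of those outside promoters had a fold of 7.73 (4.46 to 12.6). On the other side a stretch of 75.5 kb without a peak covered 98.1% of the BAP1 record and reached into DNAH1.

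SETD2, on the same chromosome (47016428 to 47164113, minus strand), had its promoter peak at 47163537 to 47164824, with a fold of 23.7 (17.4 to 31.5) and the summit at -69 bp from the canonical TSS. The antisense gene KIF9-AS1 has a start in the same place. This fold was higher than 56 of 120 promoter peaks within 5 Mb and 0.948 times their median. An equally strong peak stood at the far end of the gene, at 47016776 to 47017501 (fold 24.2; 17.9 to 32.1), with its summit in coding sequence 147 kb downstream of the start. It was the strongest peak outside promoters in the SETD2 window. The gene had 3 intronic peaks, all weak (folds of 6.18, 8.24 and 9.28). A peak-free stretch of 78.7 kb covered 53.3% of the gene. The promoters of CCDC12 and NBEAL2 in the flank had folds up to 37.6.

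MTOR, on the minus strand of chromosome 1 (11106535 to 11262556), had a strong promoter peak, 733 bp wide, at 11262296 to 11263028. Its fold was 58.7 (48.5 to 70.5) at a pileup of 113, higher than 92.1% of promoter peaks of protein-coding genes. The summit was at -167 bp from the canonical TSS, within the sequence shown above. In contrast to ELOC, MTOR stood above neighbours of usual strength. It exceeded 64 of the 71 promoter peaks within 5 Mb and was 2.43 times their median of 24.2. Inside the gene the peaks had lower folds, 6.70 in coding sequence and 7.21, 8.24 and 14.9 in introns. The strongest peak outside promoters in its window lay in the flank at 11062955 to 11063417 (fold 24.7; 18.3 to 32.7).

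TSC1, on the minus strand of chromosome 9 (132891348 to 132946874), had 3 promoter peaks. At the canonical start the peak at 132943902 to 132945286 had a fold of 13.9 (9.27 to 20.1) and its summit at -120 bp, in a promoter shared with GFI1B, a gene of blood-cell differentiation, and MIR548AW. At the most upstream start another peak had a fold of 12.4 (8.03 to 18.3). The strongest, at 132901788 to 132902308 with a fold of 23.7 (17.4 to 31.5), was intronic, 42.5 kb downstream of the canonical start, and counted as a promoter only because another TSC1 transcript begins nearby, with the summit at -157 bp from that start. The median promoter fold within 5 Mb was 22.7. At its main start TSC1 therefore had the lowest fold of the 6 genes with a promoter peak, below the middle 50% of promoter folds, and its interval did not overlap those of MTOR and ELOC. It overlapped those of VHL, BAP1 and SETD2. The 4 other peaks in the window had folds from 6.18 to 10.8. The strongest of these lay at the promoters of AK8 and SPACA9, and the only peak outside promoters had a fold of 6.18 (3.34 to 10.7).

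**Figure D1:**
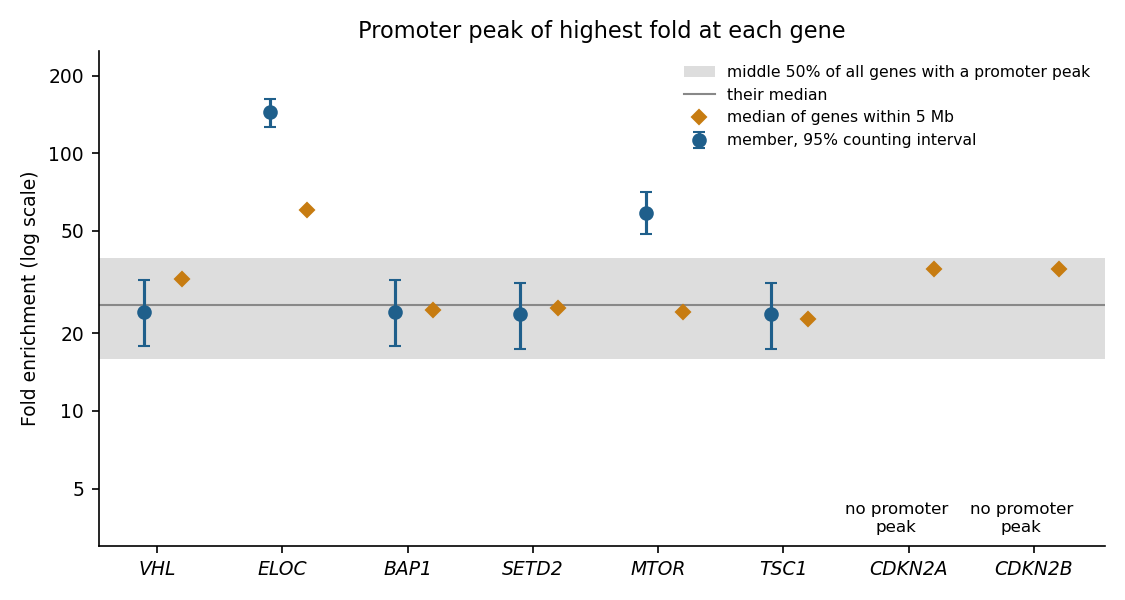
Fold enrichment of the promoter peak of highest fold at each of the 8 genes (blue points, log axis) with 95% counting intervals, beside the median of protein-coding genes within 5 Mb (diamonds) and the middle 50% of all promoter folds, 16.0 to 39.2 (grey band, line at the median of 25.8). VHL, BAP1, SETD2 and TSC1 lie inside the band at 23.7 to 24.2, MTOR (58.7) and ELOC (144) lie above it, and CDKN2A and CDKN2B have no promoter peak.

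The folds of VHL, BAP1, SETD2 and the intronic TSC1 peak rested on pileups of 46, 46, 45 and 45, and did not differ beyond counting error. The intervals of MTOR and ELOC overlapped neither these nor each other. The intervals cover counting error only. Over the 49 peaks the median fold was 13.9 (range, 5.15 to 144), compared with 10.8 over all peaks, and 14 of the 49 had a pileup under 15. By position, 8 peaks were at a promoter of a member, 15 only at promoters of other genes, and 26 outside promoters, 7 of them in introns of a member.

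**Figure D2:**
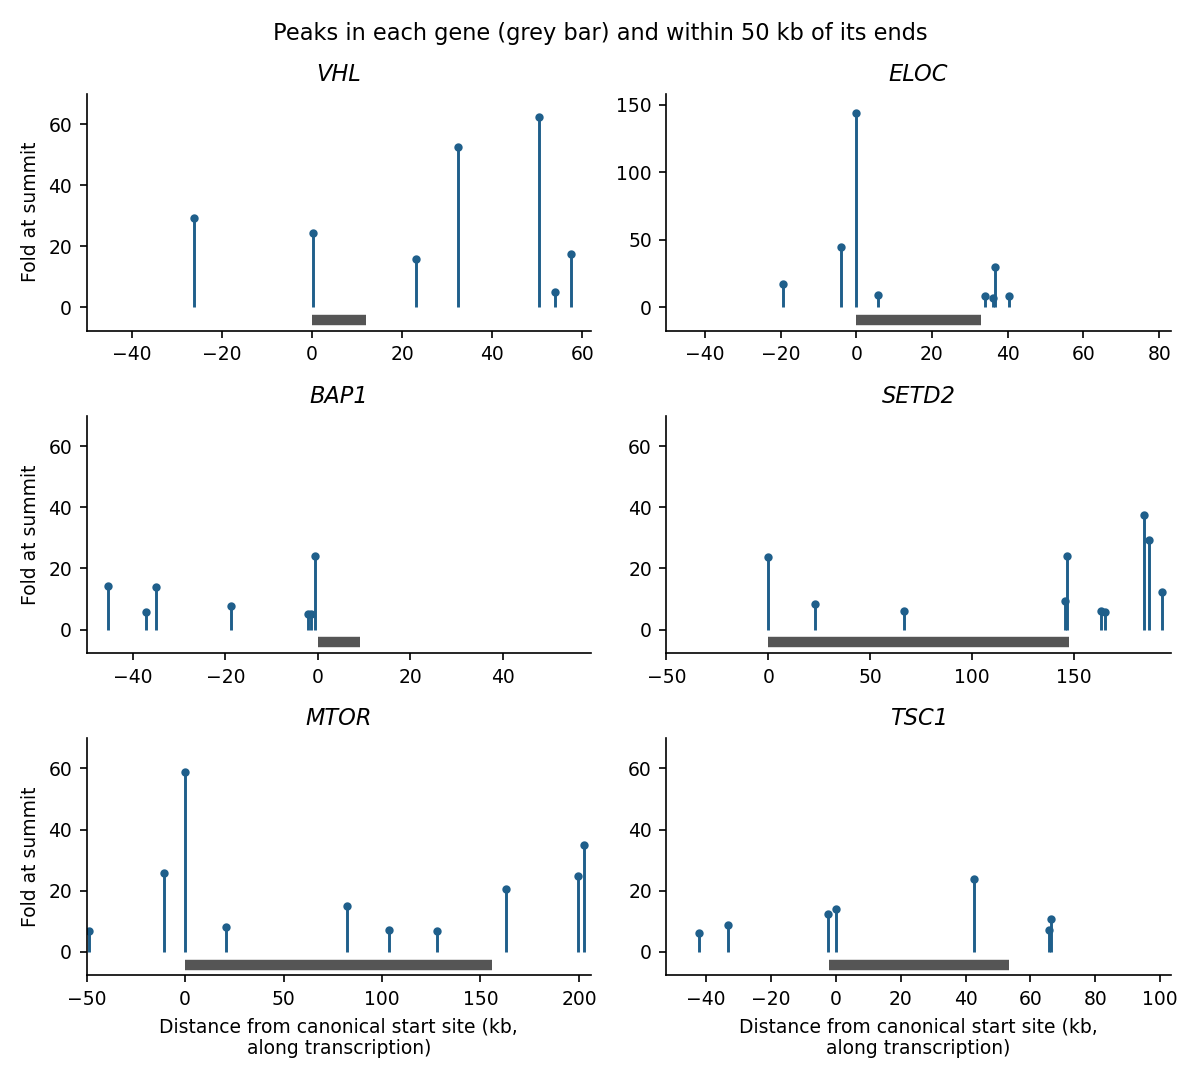
Fold at the summit of each peak in and within 50 kb of the 6 genes with peaks, against distance from the canonical start site in kb along the direction of transcription. Grey bars are the gene records and the vertical scale differs for ELOC. The promoter peak is the tallest at ELOC, MTOR and BAP1, taller peaks stand in the flanks of VHL and SETD2, and no peak stands downstream of the BAP1 start.

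The windows of VHL, BAP1 and TSC1 held 7 peaks each, that of ELOC 8, and those of SETD2 and MTOR 10 each. The median protein-coding gene had 7 (interquartile range, 3 to 11). The windows differ in length, and per 100 kb the counts were 6.42 at BAP1, 6.26 at VHL, 6.01 at ELOC, 4.50 at TSC1, 4.04 at SETD2 and 3.91 at MTOR. At the 50 kb limit, the last summit inside was 48.7 kb beyond MTOR (fold 6.70) and the next outside was 50.4 kb beyond VHL (fold 6.18).

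CDKN2A and CDKN2B shared a single peak-free stretch of 243 kb. CDKN2A lies on chromosome 9, minus strand (21967752 to 21995301), with CDKN2B on the same strand (22002903 to 22009305). The stretch ran from 21904652 to 22147866. It held both records whole, with the 13 annotated start sites of CDKN2A and the 3 of CDKN2B, and also the whole of CDKN2B-AS1, the long noncoding RNA gene of 9p21 also called ANRIL, which spans 134 kb. It held the last 33.0 kb of MTAP, a gene of the methionine salvage pathway, and a downstream start of a short MTAP transcript. The nearest summit was 70.4 kb from the p16 start and 90.9 kb from the most upstream start, on the ARF side. From the CDKN2B start it was 104856 bp away.

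The sequence on both sides was accessible. In the 250 kb to the left, toward MTAP, there were 22 peaks with folds from 5.67 to 57.2, and in the 250 kb to the right there were 12 with folds from 5.67 to 27.3, whereas chromosome 9 had 8.97 per 250 kb on average. The MTAP promoter itself had a fold of 32.5. The peaks at the edges were weak, with folds of 8.24 (4.84 to 13.3) on the left and 10.3 (6.41 to 15.8) on the right. They carried the consecutive numbers 103505 and 103506 of the peak caller. Whereas 22584 numbers are absent from the list as a whole, none was absent here. The same was true of 580 of 1228 autosomal stretches of similar length (within 25%).

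**Figure D3:**
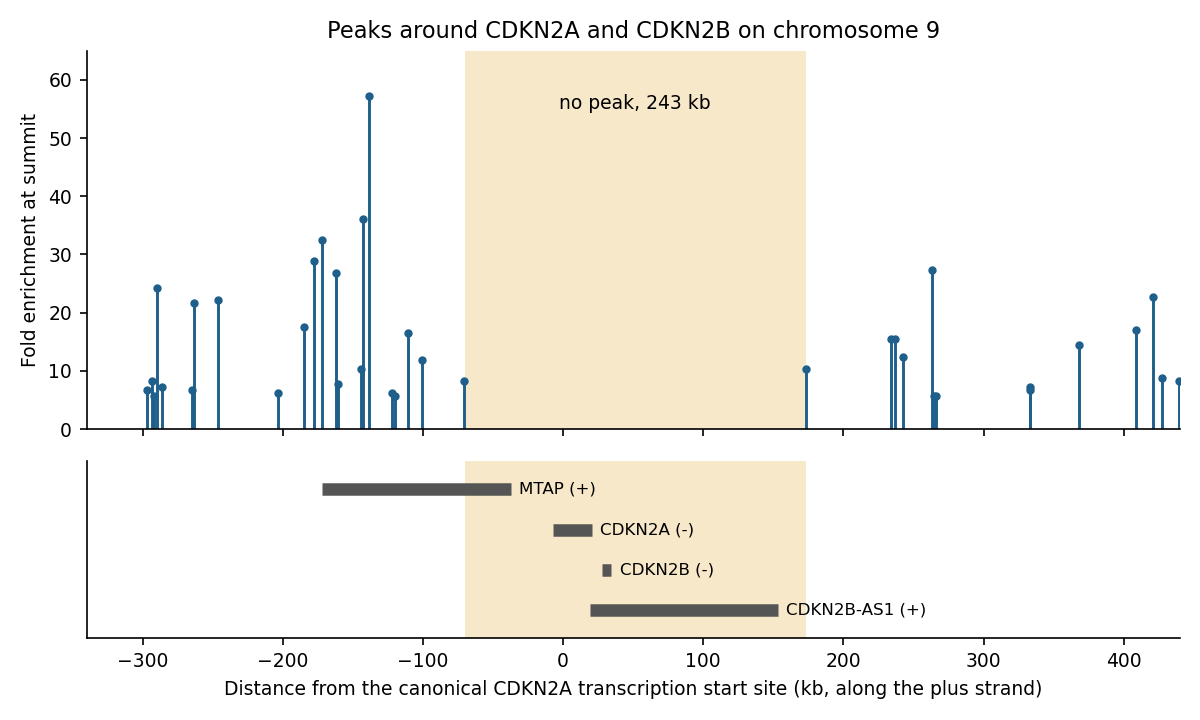
Fold at the summit of each peak (top) and gene records (bottom) against distance in kb from the canonical CDKN2A start, along the plus strand of chromosome 9. The shaded stretch of 243 kb has no peak and holds CDKN2A, CDKN2B, CDKN2B-AS1 and the end of MTAP, while peaks with folds up to 57.2 stand to its left and up to 27.3 to its right.

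Long peak-free stretches were not rare in this library. The 243 kb stretch was exceeded by 1201 of 86142 autosomal stretches (1.39%), and 11.3% of protein-coding genes were touched by one at least as long. A stretch of 100 kb or more touched 2 of the 8 genes, compared with 27.5% of all protein-coding genes. It held the whole record of the same 2 genes, compared with 13.5% of all. No summit in the record or within 50 kb was again found for these 2 genes, compared with 7.76% of all. As CDKN2A and CDKN2B are neighbours in 1 stretch, they are not independent cases. Among genes whose canonical promoter was within 5 percentage points of theirs in GC content (58.1% and 46.8%), a promoter peak was present at 69.5% of 7823 genes for CDKN2A and at 55.6% of 5636 for CDKN2B. Within 5 Mb of CDKN2A, 15 of 40 genes had a promoter peak, with a median fold of 35.6.

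To see whether reads could be placed there at all, tiles of 150 bases cut from the reference every 100 bases were aligned back to the whole reference. In the stretch, 96.3% of tiles returned to their place with a mapping quality of at least 30, the minimum the study used, and over the windows of the 8 genes the share was between 94.8% and 98.5%. Aligners differ in mapping quality, so these shares are a guide only. Deleted DNA gives no peaks, and neither does DNA that is present but closed. The peak list cannot tell these apart, and copy number was not tested.

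**Figure D4:**
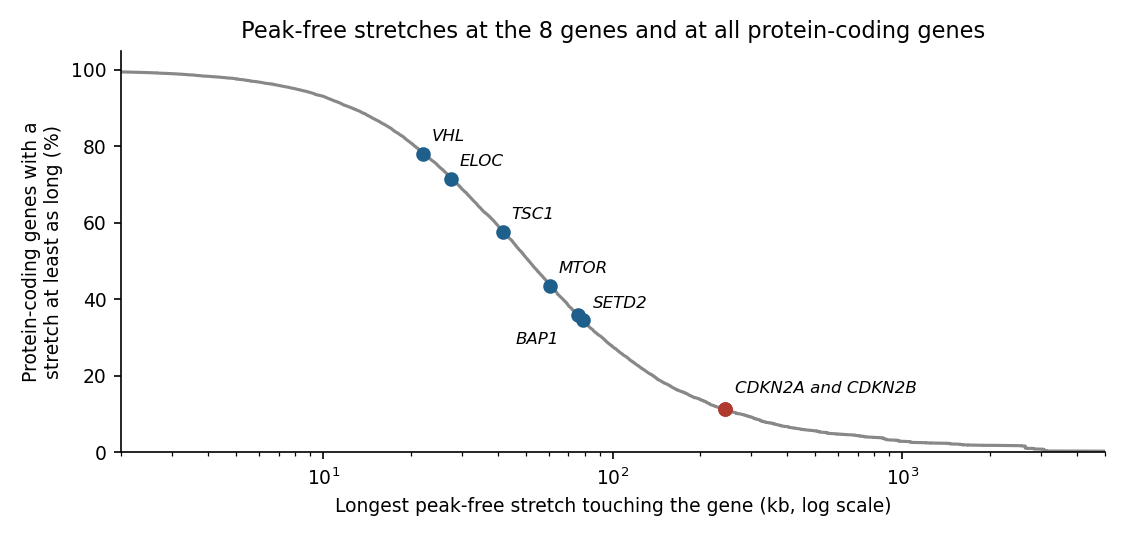
Share of protein-coding genes (vertical axis, percent) whose longest peak-free stretch is at least as long as the length on the horizontal log axis in kb, drawn as a grey line, with the 8 genes as points. VHL (22.1 kb), ELOC (27.6 kb) and TSC1 (41.6 kb) lie below the median of 51.1 kb, MTOR (60.8 kb), BAP1 (75.5 kb) and SETD2 (78.7 kb) lie above it, and CDKN2A and CDKN2B share a point at 243 kb.

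Around summits, the sequence was read on both strands for 12 motifs within 50 bp, those named above and NRF1, CRE, AP-1, E-box, RUNX and CTCF. The E-box CACGTG contains the hypoxia core. The GGGCGG site was present at the promoter summits of BAP1, SETD2 and MTOR (36.9% of 10868 promoter summits), and the CCAAT box at MTOR and ELOC (18.2%). The hypoxia core, the short sequence that hypoxia-inducible factors recognise, was present at BAP1, SETD2 and MTOR, and in 30.5% of promoter summits. None of the 12 motifs was found at VHL or at the intronic TSC1 summit. GC content in these windows ranged from 48.5% at TSC1 to 72.3% at BAP1.

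Partner genes of the members were then counted in 5 lists. Of 45 genes, 42 had a promoter peak (93.3%), beside 61.4% of all protein-coding genes, whose median promoter fold was 25.8. Around VHL, 6 of 6 genes of the ligase and its hypoxia-inducible substrates were open (median fold 30.9), from ELOB, the partner of elongin C (10.3), to EGLN1, the oxygen-sensing hydroxylase that prepares the substrates (38.1). Among partners of BAP1, 10 of 10 were open (median 31.4), with the lowest fold at ASXL3 (6.18) and the highest at MBD5 (64.9). The peak of MBD5 was shared with ORC4.

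For H3K36 methylation, 9 of 10 genes had a promoter peak (median fold 22.2), from NSD1 (8.76), a dimethyltransferase, to KDM4A (60.3), a demethylase. The exception was SUPT6H, a histone chaperone of elongating polymerase. Its nearest summit (fold 15.5) lay 132 bp past its start, just outside the promoter window, which ends at 100 bp, so its start was not without a peak nearby. Of the mTOR and TSC genes, 10 of 10 were open (median 27.8). RPTOR, the scaffold of mTOR complex 1, was lowest (9.28), and RHEB, the GTPase through which TSC1 and TSC2 act on it, was highest (103; 89.3 to 118). TSC2 had a fold of 27.8, at a promoter shared with NTHL1.

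In the pathway of p16 and ARF, 7 of 9 genes had a promoter peak (median fold 34.0). CDK4, the kinase that p16 inhibits, was highest (62.3; 51.8 to 74.5), and CCND1, its cyclin, was lowest (17.0). The genes of the other INK4 inhibitors, CDKN2C and CDKN2D, had folds of 43.3 and 42.8, the former at a promoter shared with FAF1. RB1, whose product p16 protects from phosphorylation, had 21.6, and MDM2, whose product ARF binds, had 34.0. CDK6 and CCND2 had no promoter peak. The summit nearest a start was 1693 bp away at CDK6, in a window of 50 peaks, and 1541 bp away at CCND2.

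The labelled cell type was checked at genes of kidney and renal carcinoma. PAX8 (fold 31.9) and PAX2 (22.7), transcription factors of the renal lineage, had promoter peaks, as did VIM (47.9) and NNMT (7.21). CA9 and LHX1 had none. None of 7 marker genes of leukocytes, endothelium, liver or neurons had a promoter peak, although at RBFOX3 a summit lay 735 bp from a start. Of all protein-coding genes 61.4% had a promoter peak, so the peaks at kidney markers do not by themselves identify the cell type. A promoter peak is not a measure of expression.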

How the data were processed

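ATAC-seq peaks of 1 empty-vector library of 786-O cells were analysed. According to the study's methods and the submitters' processing notes, the authors used fastp for trimming and Bowtie2 2.3.4.3 for alignment to hg38, dropped mitochondrial, duplicate and low-quality alignments, and called peaks with MACS2 2.2.6 on this library alone, without local background. A shift to the Tn5 cut site is not stated. The deposited fold is the summit pileup plus 1 over the background pileup (0.941) plus 1. The deposited −log10 p-values, −log10 q-values and score come from the same pileup, the score being 10 times the −log10 q-value. The list starts at a score of 52 and a pileup of 9, so weaker sites are missing. Read totals are unknown, and the pileup is the depth behind each value.

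Pileups were recovered from the folds to within 1.69e-05 of whole numbers, and exact Poisson 95% intervals were turned into fold intervals. A fold of 5.15 thus had an interval of 2.64 to 9.32. GENCODE release 44 gave genes and starts. All peaks on the primary chromosomes lay within the chromosome lengths of the hg38 sequence. Stretches run between neighbouring peak intervals. Those compared by length were autosomal, between 2 peaks and with under 10 kb of unknown bases. Members and lists were chosen with earlier results of these data known. Named were all members, the lowest and highest gene of each list and its genes without a promoter peak, protein-coding genes sharing a promoter peak with a member or starting in its stretch of 100 kb or more, and peaks at the window limit. CDKN2B-AS1, KIF9-AS1, MIR548AW, TSC2, CDKN2C, CDKN2D, RB1, MDM2, MIR31HG and flanking genes were named after their values were seen. The result for 1 kidney marker is not reported here. Functions were tested on simulated data, with 400 of 400 genes assigned correctly. Python 3.11.15, numpy 2.4.6, pandas 2.3.3, scipy 1.17.1, matplotlib 3.10.9, pysam 0.24.0, samtools 1.23.1 and minimap2 2.31 were used.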

Additional observations from a re-analysis of the deposited data

How the results depend on the processing

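With 1 library, leaving out a replicate was not possible. No paired analysis was possible because 1 sample has no partner. Alternatives were the minimum score, the promoter window, the canonical start, overlap in place of summits, the flank and the definition and length of a stretch. Of 22 counts, 17 stayed within 1.5 times and 5 did not. The peaks assigned numbered 27 with a score of at least 200, 25 with a flank of 10 kb and 89 with 100 kb, where fewer or more peaks qualify by construction. The genes touched by a long stretch numbered 4 with a score of at least 200 (47.8% of all protein-coding genes). SETD2 (146 kb) and TSC1 (132 kb) were then among them. The number was 5 with a minimum length of 50 kb (50.8% of all). It was 3, within 1.5 times, with a score of at least 100 (37.2% of all), when SETD2 (123 kb) had already joined. The stretch at CDKN2A and CDKN2B was 243 kb with a score of at least 100 and 334 kb with 200. A promoter peak was found at 6 of 8 genes in all promoter and score settings except the canonical start alone, with which VHL lost its peak, leaving 5, and the fold of TSC1 was 13.9. The share of all protein-coding genes moved with these settings. It was 70.3% with 2.5 kb to both sides, 57.5% with a score of at least 100, 52.2% with the canonical start and slightly lower than that with a score of at least 200. Of 99 values of single members, 77 stayed within their counting interval or 1.5 times and 22 did not. Those 22 were counts of peaks, stretch lengths or this TSC1 fold. The VHL promoter fold with the canonical start alone is not among the 99, since no peak was left to give a value. Depth limits the weak peaks, and 35.7% of all peaks had a pileup under 15.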

Other observations

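Beyond the stretch around CDKN2A and CDKN2B, the genes within 600 kb were read as values, a reach chosen after the data were seen. None of 7 interferon genes there had a promoter peak or a summit in its record. MIR31HG, the host gene of a microRNA, had a promoter peak (fold 13.4) and 10 summits in its record. On the other side DMRTA1 had 2 summits in its record and no promoter peak.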
